A study of Mus musculus with 4 samples.

Results

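The genes described here are 32 genes that serve calcium handling and energy supply in striated muscle, out of 22609 genes counted in whole testes of mice at postnatal day 3. They were chosen by name, with the levels in these same libraries already known, so their differences between the genotypes are given as a description and not as tests. All 32 symbols are in the table. The 2 mutant libraries are labelled as carrying a dominant-negative thyroid hormone receptor alpha 1, which interferes with the normal one, and the 2 wild-type libraries as carrying the wild-type receptor. All animals have a mainly C57BL/6J background and descend from matings of AmhCre mice, in which the Amh promoter drives Cre recombinase in Sertoli cells, to heterozygous carriers of the TRαAMI allele of Thra. Whether the wild-type animals carried Cre, and whether the libraries are separate animals or pools, is not stated in the labels, so the p-values rest on the spread among these 4 libraries, which may be technical. The study asks which genes depend, directly or not, on the receptor in Sertoli cells, the somatic cells of the seminiferous tubule.

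In striated muscle a sodium channel carries the action potential along the surface, a voltage sensor in the membrane opens the calcium release channel of the sarcoplasmic reticulum, and a calcium pump takes the released calcium back. Creatine kinases, glycogen breakdown, glycolysis and specialised subunits of the respiratory chain renew the ATP that this cycle and the contraction consume. Thyroid hormone is known to raise the fast-twitch calcium pump gene Atp2a1 and the glucose transporter gene Slc2a4 in muscle, and the testis itself contains smooth muscle-like cells but no striated fibers.

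Gene counts per library ran from 10230512 to 15636832. Levels are given in CPM, counts scaled to the library total with the trimmed mean of M values (TMM), and for each genotype replicate 1 stands before replicate 2. Thra, the gene of the receptor, was read at 237 and 194 CPM in mutant and at 398 and 257 CPM in wild-type libraries, and was not called (log2 fold change -0.60 ± 0.19, SE, edgeR adjusted p = 0.0965). Its counts cannot tell the mutant transcript from the normal one, so they do not check the labels. Muscle transcripts set the mutant libraries apart. The skeletal actin gene Acta1 was read at 875 and 222 CPM in mutant and at 0.601 and 0.686 CPM in wild-type libraries, and 19 skeletal sarcomere markers, all detected in both mutant libraries, summed to 2801 and 759 CPM in the mutant and to 77.0 and 62.0 CPM in the wild-type libraries. Of these markers 18 were tested and 14 rose, beside 3.15% higher and 2.52% lower over all tested genes by edgeR. The part of these markers in the values below was not tested. Of 10 cardiac markers, 7 of them tested, 2 rose and 1 fell, beside 3.15% and 2.52% over all tested genes. Their sums were 196 and 119 CPM in mutant and 166 and 151 CPM in wild-type libraries. Both mutant libraries lay above both wild-type libraries in 3 of the 10 and below them in 1. Over all genes with a count this held for 25.8% and 25.9%. Nppa, Nppb and Nkx2-5 lay between 0 and 0.273 CPM in all 4 libraries, so the sums came from the other cardiac markers. The 8 smooth muscle markers summed to 1704 and 1527 CPM in mutant and to 1667 and 1622 CPM in wild-type libraries. None was called by edgeR's quasi-likelihood test or by DESeq2. An unadjusted edgeR p below 0.05 was found for 3 of the 8, beside 3772 of all 14788 tested genes. The 8 testis markers summed to 1540 and 1581 CPM in mutant and to 1939 and 1678 CPM in wild-type libraries. Of these 8, all tested, 2 fell (the germ cell genes Ddx4 and Dazl) and none rose, beside 2.52% and 3.15% over all tested genes. Both mutant libraries lay below both wild-type libraries in 4 of the 8, beside 25.9% of all genes with a count. Only 2 of the 8 had a positive log2 fold change. The Sertoli cell gene Amh was read at 704 and 672 CPM in mutant and at 777 and 618 CPM in wild-type libraries. In bulk RNA, more cells of a type and more RNA per cell cannot be told apart.

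The calcium and energy genes had very different levels in wild-type testes. There were 12 with at most 15 counts over both wild-type libraries, 9 had 16 to 150, and 11 had more than 150. Of the 32 genes 30 passed the filter on low counts, 10 of them only through the mutant libraries, and Clcn1 and Phkg1 did not pass. By edgeR's quasi-likelihood test with Benjamini-Hochberg adjustment over 14788 genes, 16 members were called higher in mutant and 0 lower, with 24 of the 30 at an unadjusted p below 0.05, of which Cox7a1 alone had a lower value. Over all tested genes 3.15% were called higher and 2.52% lower, 5.67% in all. An unadjusted edgeR p below 0.05 was found for 3772 of the 14788 genes. Counts of genes at an unadjusted p, here and below, are to be read beside that number. Fits with a library left out have their own number, which is not given here. DESeq2 called 18 members higher and 0 lower, and 4.15% and 2.79% of all genes. The main edgeR fit did not call 14 of the 30. These were Cacna1s, Cacng1, Stac3, Ryr1, Jph1, Jph2, Jsrp1, Casq2, Atp2a2, Phka1, Mb, Fabp3, Slc2a4 and Cox7a1. Of these DESeq2 called Cacng1 and Ryr1 higher. The members' median log2 fold change was 2.82 over the 30, against -0.01 over all tested genes. Both mutant libraries lay above both wild-type libraries in 25 of the 32 genes and below them in 2, against 25.8% and 25.9% of all genes with a count. Nothing is read from these counts, since the genes were chosen on this contrast. All 16 calls were lost when either wild-type library was left out, with 19 members at an unadjusted p below 0.05 in each of these edgeR fits. The share of all genes called then was 0.491% (74 genes) when wild-type replicate 1 was left out and 0.967% (148 genes) for wild-type replicate 2. With mutant replicate 1 left out, 15 members were called higher beside 3.39% of all genes, and with mutant replicate 2 left out 23 beside 5.43%. No filter gave 11 beside 1.5%, and a replicate block 18 beside 3.46%. DESeq2 was not run on 3 libraries.

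Of the 32 genes 11 overlap another gene of the annotation, 7 of them a gene in the table, and without a known strand setting such reads cannot be told apart. Among these are Atp2a1, which overlaps Rabep2 on the other strand (48.6 and 49.2 CPM in mutant, 48.6 and 63.1 CPM in wild-type libraries), and Fabp3, which overlaps Zcchc17 (43.9 and 45.6 CPM in mutant, 47.8 and 45.0 CPM in wild-type libraries).

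**Figure D1:**
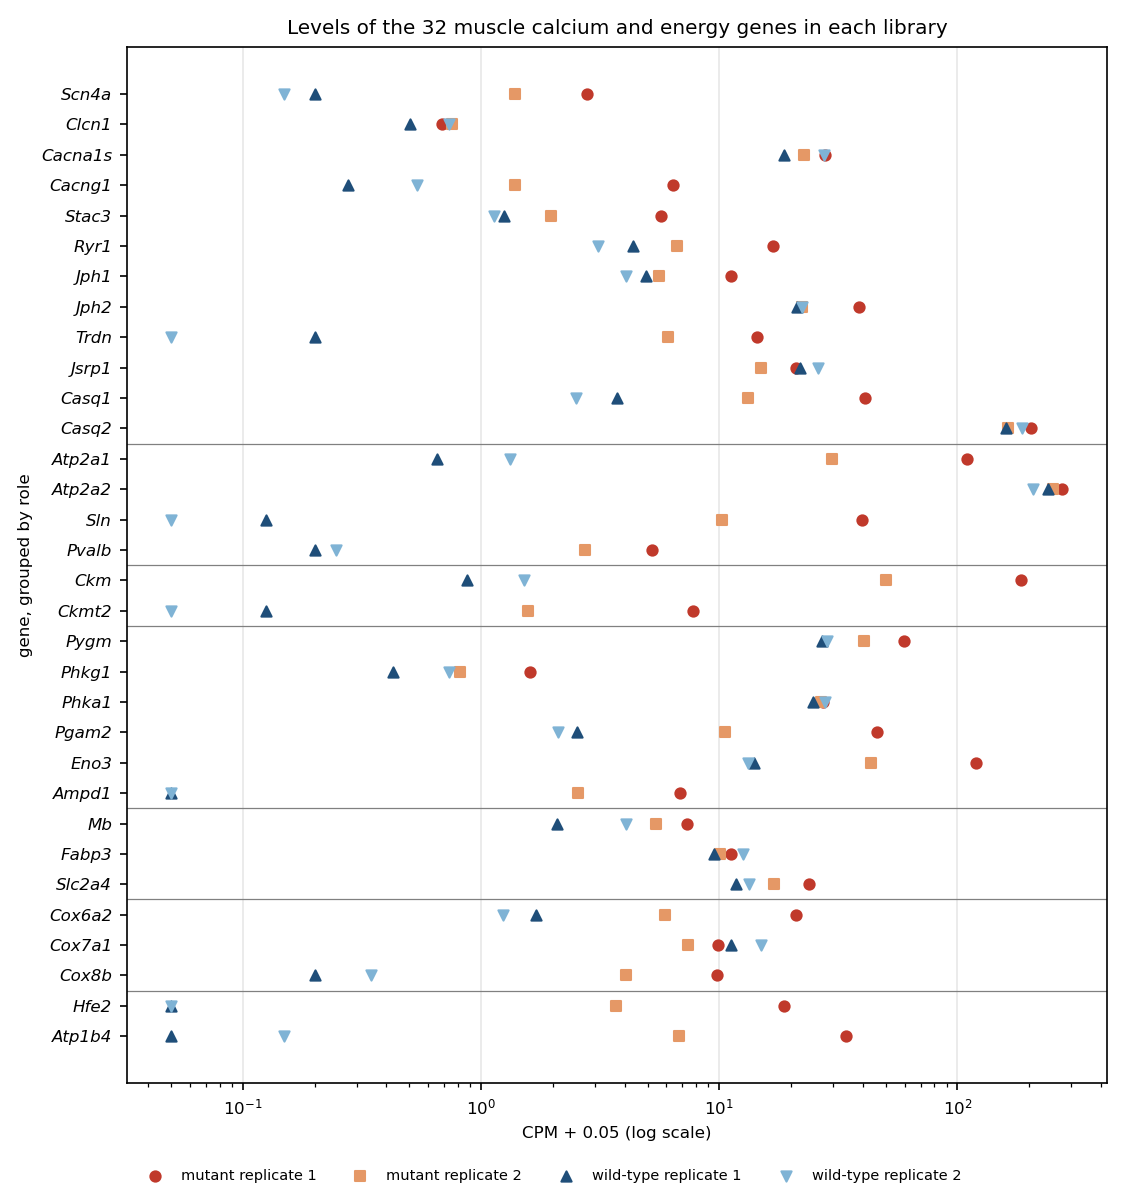
Level of each of the 32 genes in each of the 4 libraries, as CPM + 0.05 on a log axis, with genes grouped by role (horizontal lines). Mutant replicate 1 is the highest library for most genes with low wild-type levels, such as Ckm at 185 CPM, while Casq2, Atp2a2, Phka1 and Fabp3 lie close together in all 4.

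Genes of the surface membrane ranged from groups far apart to groups that overlapped. Scn4a, the sodium channel of skeletal muscle fibers, was read at 2.73 and 1.34 CPM in mutant and at 0.150 and 0.0980 CPM in wild-type libraries. Both mutant libraries exceeded both wild-type libraries, and the ratio of summed counts, 51 against 3, was 15 (exact 95% interval 4.85 to 75.1, counting error only, as for all intervals here). Clcn1, the chloride channel that stabilises the resting fiber, stayed near the limit of detection with 18 counts in mutant and 13 in wild-type libraries, and the groups overlapped. Cacng1, the gamma subunit of the voltage sensor, had 6.37 and 1.34 CPM in mutant libraries, against 0.225 and 0.490 CPM in wild-type libraries, with 91 against 8 counts and a ratio of 10 (4.88 to 23.9), and of 3.94 (1.68 to 10.3) without mutant replicate 1. Stac3, which couples the sensor to the release channel, had 5.64 and 1.92 CPM in mutant and 1.20 and 1.08 CPM in wild-type libraries. Mutant replicate 1 held most of the difference in both Cacng1 and Stac3, and neither was called (edgeR adjusted p = 0.0877 and 0.143).

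The pore subunit of the voltage sensor was well detected in wild-type testes. Cacna1s was read at 27.8 and 22.7 CPM in mutant and at 18.6 and 27.5 CPM in wild-type libraries, a log2 fold change of 0.14 ± 0.20, and the groups overlapped. Per kilobase of exon its level in wild-type testes, 3.52 CPM, was above that of Ryr1, the calcium release channel that it opens, at 0.238 CPM. Ryr1 itself was read at 16.7 and 6.58 CPM in mutant and at 4.28 and 3.04 CPM in wild-type libraries, with a log2 fold change of 1.58 ± 0.47, and of 0.82 without mutant replicate 1. Its groups did not overlap.

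The proteins that hold and fill the triad, the junction of surface membrane and sarcoplasmic reticulum, differed in the same uneven way. Trdn encodes triadin, which anchors the calcium store to the release channel, and was read at 14.3 and 6.06 CPM in mutant libraries, against 0.150 and 0 CPM in wild-type libraries. That is 252 against 2 counts, a ratio of 111 (30.5 to 923), and of 71.3 (19.2 to 597) without mutant replicate 1. Casq1, the calcium-binding protein of the fast-fiber store, had 41.0 and 13.2 CPM in mutant and 3.68 and 2.45 CPM in wild-type libraries, with a log2 fold change of 3.07 ± 0.58, and of 2.08 without mutant replicate 1. Its relative Casq2, the form of heart and slow fibers, was the member with the highest wild-type level per kilobase, 63.1 CPM. It was read at 203 and 163 CPM in mutant and at 160 and 186 CPM in wild-type libraries. These groups overlapped, and the log2 fold change was 0.08 ± 0.12. The junctophilin genes Jph1 and Jph2, which tie both membranes together, had log2 fold changes of 0.84 ± 0.36 and 0.47 ± 0.24, and of 0.31 and 0.04 without mutant replicate 1.

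Jsrp1, a triad protein that binds the voltage sensor, was lower in both mutant libraries. It was read at 21.0 and 14.9 CPM in mutant and at 21.8 and 25.9 CPM in wild-type libraries, a log2 fold change of -0.42 ± 0.19. The gene lies on chromosome 10, minus strand, mm9 bases 80271246 to 80276240, and its end is 852 bases from the end of Amh, which runs towards it on the other strand. Amh was read at over 600 CPM in every library, and as the strand setting of the counting is not given in the sources used here, the part of Amh in these reads was not tested.

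Of the 4 genes of calcium uptake and buffering, 3 had low wild-type levels and 1 a high one. Atp2a1, the calcium pump of fast fibers, was read at 110.0 and 29.8 CPM in mutant and at 0.601 and 1.27 CPM in wild-type libraries. Its log2 fold change was 6.25 ± 0.83, and 5.04 without mutant replicate 1. Atp2a2, the pump that nearly all tissues use, stood at 276 and 251 CPM in mutant and at 240 and 207 CPM in wild-type libraries, a log2 fold change of 0.24 ± 0.10. Both mutant libraries were the higher, by a margin smaller than the distance between the wild-type libraries. Sln encodes sarcolipin, a small inhibitor of the pump, and was read at 39.7 and 10.2 CPM in mutant libraries against a single count in wild-type replicate 1 and 0 in wild-type replicate 2. With 596 counts against 1 the ratio was 526 (94.0 to 20804), and 240.0 (42.5 to 9546) without mutant replicate 1. Pvalb, the calcium buffer of fast fibers, had 5.19 and 2.68 CPM in mutant and 0.150 and 0.196 CPM in wild-type libraries, a ratio of 21.8 (8.27 to 81.7).

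Promoters are shown for 3 genes that were nearly silent or low in wild-type testes and high in the mutant libraries, Ckm, Atp2a1 and Pgam2, and for Casq2, which was at a like level in all. Each runs from 250 bases before to 50 after the RefSeq start of the gene, 5′ to 3′ (table of GRCm38.p6), and was placed in mm9 by an exact match. The nearest GENCODE M1 start is 35 bases from the RefSeq start for Atp2a1, 63 for Pgam2 and 0 for Ckm and Casq2. The Pgam2 window therefore lies wholly before the GENCODE start. Capitals mark the E-box CAGCTG and the MEF2 consensus, the motifs by which the myogenic factors and the MEF2 factors are known to recognise muscle genes.
Ckm promoter, chr7:19996193-19996492, plus strand, mm9: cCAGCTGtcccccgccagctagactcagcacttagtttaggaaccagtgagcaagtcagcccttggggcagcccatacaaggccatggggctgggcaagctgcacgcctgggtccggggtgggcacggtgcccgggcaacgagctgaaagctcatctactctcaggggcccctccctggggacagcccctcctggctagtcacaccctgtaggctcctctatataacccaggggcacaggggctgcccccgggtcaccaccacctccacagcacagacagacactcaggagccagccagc
Atp2a1 promoter, chr7:133606538-133606837, minus strand, mm9: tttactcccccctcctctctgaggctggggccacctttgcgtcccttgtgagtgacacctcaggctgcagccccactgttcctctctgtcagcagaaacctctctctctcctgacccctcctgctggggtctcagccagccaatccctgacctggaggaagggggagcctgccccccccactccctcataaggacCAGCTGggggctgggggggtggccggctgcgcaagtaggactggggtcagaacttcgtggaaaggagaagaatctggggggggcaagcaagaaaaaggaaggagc
Pgam2 promoter, chr11:5703750-5704049, minus strand, mm9: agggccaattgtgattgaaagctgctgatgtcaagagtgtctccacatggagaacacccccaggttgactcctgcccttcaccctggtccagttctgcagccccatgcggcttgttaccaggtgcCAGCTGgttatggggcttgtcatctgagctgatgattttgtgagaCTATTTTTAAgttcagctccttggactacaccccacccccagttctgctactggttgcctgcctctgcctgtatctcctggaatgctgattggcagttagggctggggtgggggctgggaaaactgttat
Casq2 promoter, chr3:101890088-101890387, plus strand, mm9: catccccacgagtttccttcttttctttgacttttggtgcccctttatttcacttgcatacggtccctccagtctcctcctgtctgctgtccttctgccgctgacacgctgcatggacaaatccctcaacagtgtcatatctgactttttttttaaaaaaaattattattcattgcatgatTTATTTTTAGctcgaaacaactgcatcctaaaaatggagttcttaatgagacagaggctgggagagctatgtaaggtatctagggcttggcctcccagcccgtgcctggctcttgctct

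CAGCTG starts at position -249 from the RefSeq start in the Ckm window, at -55 in Atp2a1 and at -125 in Pgam2. The MEF2 consensus starts at -80 in Pgam2 and at -69 in Casq2. Of the 32 symbols 21 have a promoter in the RefSeq table, and both strands were searched. CAGCTG was found in 11 of the 21 (52.4%), against 16.1% of the promoters of 27025 genes, 1 for each gene. The MEF2 consensus was found in 4 (19.0% against 3.26%), and TATAAA in 2 (9.52% against 14.2%). The broader E-box CANNTG, which contains CAGCTG, was found in 18 (85.7% against 72.1%). Neither the CArG box, known from actin genes, nor the thyroid hormone response element DR4 (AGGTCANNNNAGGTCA) occurred in any of the 21 windows, against 1.57% and 0.0111% of all promoters. Promoters with neither CAGCTG nor the MEF2 consensus include those of Scn4a, Ryr1 and Atp1b4, in which both mutant libraries exceeded both wild-type libraries. Pvalb, with the same order of libraries, held the MEF2 consensus but no CAGCTG. The CAGCTG promoters include those of Cacna1s and Phka1, whose groups overlapped, and the MEF2 promoters those of Clcn1 and Casq2. These are matches of letters and not shown binding sites.

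Among the energy genes both muscle creatine kinases were low in wild-type testes. Ckm, the cytosolic enzyme of muscle, was read at 185 and 49.9 CPM in mutant and at 0.826 and 1.47 CPM in wild-type libraries. Its log2 fold change was 6.70 ± 0.80, and 5.48 without mutant replicate 1. Per kilobase of exon it stood at 131 and 35.2 CPM in mutant and at 0.584 and 1.04 CPM in wild-type libraries. In mutant replicate 1 this was above Casq2, at 74.2 CPM, and in mutant replicate 2 below Casq2, at 59.5 CPM, and Atp2a2, at 44.3 CPM. Ckmt2, the mitochondrial form of striated muscle, had 109 counts in mutant and 1 in wild-type libraries, a ratio of 96.2 (16.9 to 3833), and of 36.0 (5.88 to 1482) without mutant replicate 1.

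The glycogen and glycolysis genes, listed here together with Ampd1, ran in wild-type libraries from no count (Ampd1) to 648 counts (Pygm). Pgam2, the muscle phosphoglycerate mutase, was read at 46.0 and 10.5 CPM in mutant and at 2.48 and 2.06 CPM in wild-type libraries, with a log2 fold change of 3.57 ± 0.75, and of 2.19 without mutant replicate 1. Eno3, the muscle enolase, had 120.0 and 43.5 CPM in mutant and 13.9 and 13.1 CPM in wild-type libraries, with a log2 fold change of 2.58 ± 0.43, and of 1.68 without mutant replicate 1. Pygm, the glycogen phosphorylase of muscle, had 59.4 and 40.6 CPM in mutant and 26.9 and 28.4 CPM in wild-type libraries. Here the log2 fold change was 0.85 ± 0.18, and both mutant libraries were above both wild-type libraries. Of the subunits of phosphorylase kinase, which activates Pygm, Phka1 lay between 24.8 and 27.7 CPM in all 4 libraries (log2 fold change 0.04 ± 0.13). Phkg1 had 29 counts in mutant and 12 in wild-type libraries, and it overlaps Chchd2 on the same strand, so its few reads are uncertain. Ampd1, the muscle AMP deaminase, had 75 and 39 counts in mutant and none in wild-type libraries, 33.5-fold higher when wild type is set to the 3 counts per group that 0 allows, with an exact 95% lower limit of 26.8. Without mutant replicate 1 these values were 19.5 and 15.1.

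Genes of oxygen, fatty acid and glucose supply had fitted log2 fold changes between -0.05 and 1.09. Mb encodes myoglobin, the oxygen store of muscle, and had 7.28 and 5.36 CPM in mutant against 2.03 and 4.02 CPM in wild-type libraries. Fabp3, the fatty acid carrier of heart and muscle, had 11.1 and 10 CPM in mutant and 9.46 and 12.5 CPM in wild-type libraries, and these overlapped. Slc2a4, the insulin-responsive glucose transporter of muscle and fat, had 23.8 and 17.0 CPM in mutant and 11.7 and 13.3 CPM in wild-type libraries, a log2 fold change of 0.69 ± 0.21. None of the 3 was called by edgeR or DESeq2, with 2 at an unadjusted edgeR p below 0.05.

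The muscle subunits of cytochrome c oxidase, the last complex of the respiratory chain, did not differ in 1 direction. Cox6a2 was read at 20.9 and 5.87 CPM in mutant and at 1.65 and 1.18 CPM in wild-type libraries, and Cox8b at 9.74 and 4.02 CPM in mutant and at 0.150 and 0.294 CPM in wild-type libraries. Cox7a1, used by muscle and brown fat, had 9.83 and 7.34 CPM in mutant and 11.1 and 14.9 CPM in wild-type libraries, so that both mutant libraries were lower, with a log2 fold change of -0.61 ± 0.24. Adipocyte transcripts were lower in the mutant libraries as well. The 11 adipocyte markers summed to 105 and 103 CPM in mutant and to 167 and 166 CPM in wild-type libraries. Of 10 tested, 5 fell, beside 2.52% of all tested genes, and Cfd had no count in either mutant library. The 7 brown fat markers summed to 25.4 and 32.2 CPM in mutant and to 48.0 and 35.0 CPM in wild-type libraries, with Ucp1 between 0 and 0.447 CPM throughout. The part of fat cells in the levels of Cox7a1, Cox8b and Slc2a4 was not tested.

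Hfe2 and Atp1b4 were almost absent from wild-type testes. Hfe2 encodes hemojuvelin, an iron-regulating membrane protein of muscle and liver, and had 206 and 57 counts in mutant and none in wild-type libraries, 77.3-fold higher against the same 3 counts, with an exact lower limit of 62.5. Without mutant replicate 1 these values were 28.5 and 22.5. Atp1b4, a beta subunit relative of the sodium pump found in muscle, had 373 and 105 counts in mutant and 0 and 1 in wild-type libraries, a ratio of 422 (75.3 to 16692), and of 158 (27.7 to 6285) without mutant replicate 1.

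The mutant libraries also differed from each other. Among the 31 members with at least 20 counts in the mutant group, CPM in mutant replicate 1 over mutant replicate 2 ran from 1.01 (Phka1) to 5.15 (Hfe2) with a median of 2.36, and 18 members exceeded 2. Over 14606 tested genes with as many counts the median was 1.00, and 1.8% exceeded 2. Members with more than 150 wild-type counts had a median ratio of 1.34, those with 16 to 150 one of 3.11, and those with at most 15 one of 2.74. In 18 members the mutant mean was at least 3 times the wild-type mean. For these, the excess over wild type was 2.00 to 6.12 times as large in mutant replicate 1 as in mutant replicate 2 (median 3.84), and that of Acta1 was 3.96 times as large. Those of the 31 members under this cut with an excess in both mutant libraries had values from 1.72 (Phka1) to 26.4 (Jph2). Clcn1, outside the 31 with 18 mutant counts, had 0.513. The Jph2 value rests on an excess of 0.636 CPM in mutant replicate 2. With 1 library on each side, these ratios compare libraries and carry no test.

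Single members are given beside Acta1, as values of these libraries with counting intervals and no test. Acta1 had a ratio of 3.95 (3.80 to 4.11), and close to it were Sln at 3.88 (3.23 to 4.69), Ckm at 3.72 (3.42 to 4.04) and Atp2a1 at 3.70 (3.32 to 4.13). Of the 11 members with at most 15 wild-type counts and at least 20 mutant counts, 4 had an interval wholly below that of Acta1. These were Pvalb at 1.93 (1.28 to 2.95), Scn4a at 2.04 (1.13 to 3.74), Trdn at 2.36 (1.81 to 3.07) and Cox8b at 2.42 (1.76 to 3.36). None of the 11 lay wholly above it, the nearest being Atp1b4 at 5.06 (4.07 to 6.35) and Hfe2 (3.83 to 7.04). All 4 passed the filter only through the mutant libraries.

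**Figure D2:**
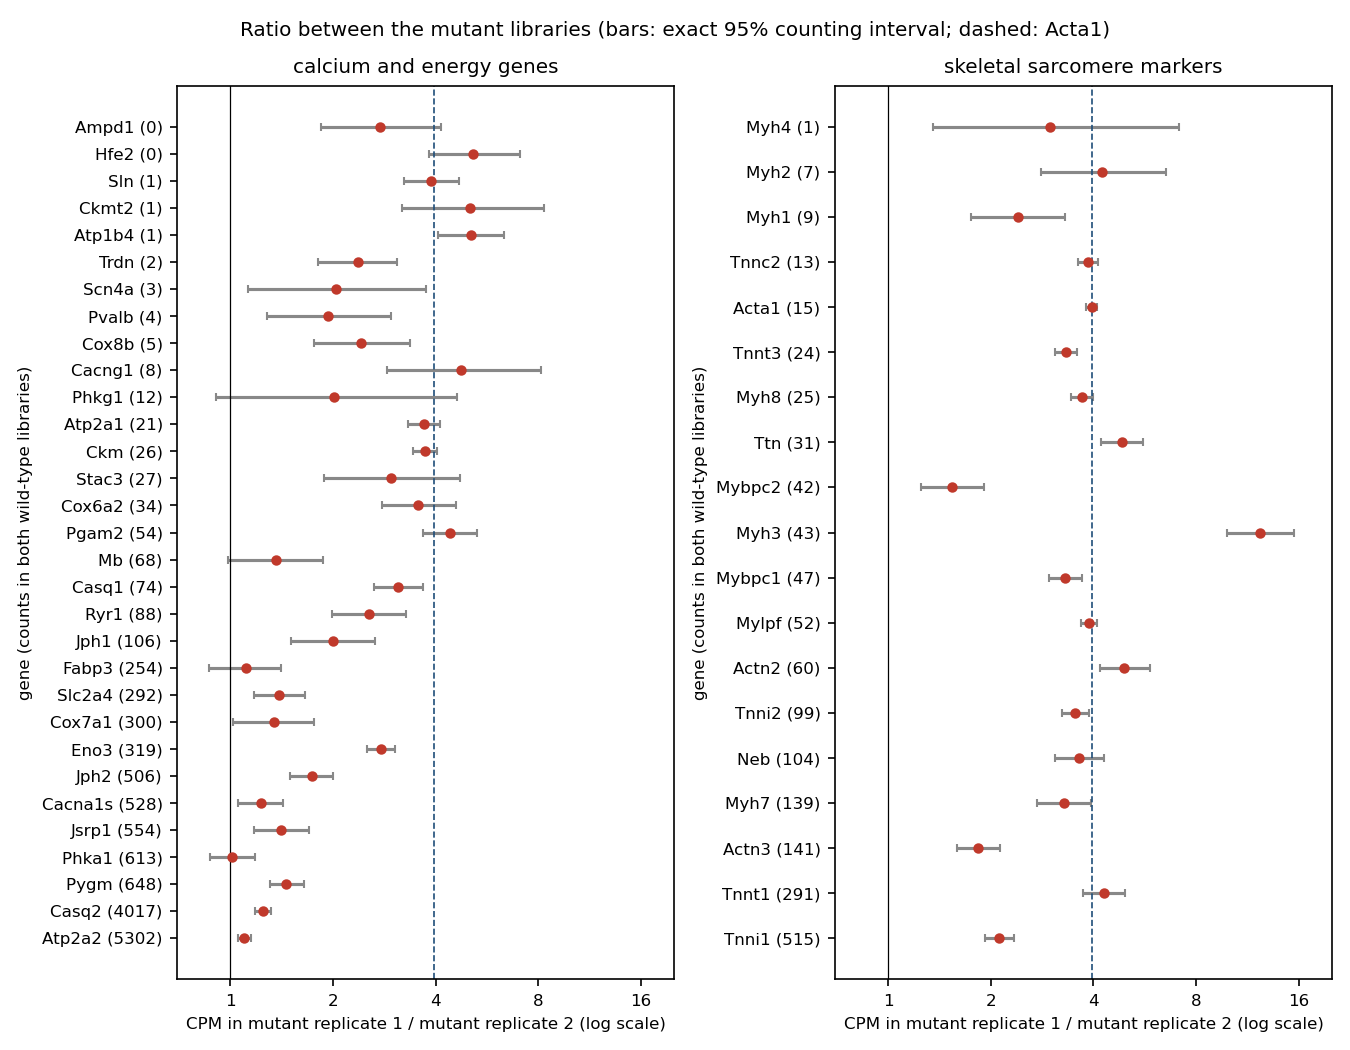
CPM in mutant replicate 1 divided by mutant replicate 2 on a log axis, for calcium and energy genes (left) and skeletal sarcomere markers (right) with at least 20 mutant counts, ordered by their wild-type counts (in brackets). Bars are exact 95% counting intervals, and the dashed line is Acta1 at 3.95. Atp2a2, with the most wild-type counts, sits at 1.10, Eno3, with 319 wild-type counts, at 2.76, and Myh3 at 12.3 is farthest to the right.

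Muscle genes were then set against related genes that other tissues use, as the share of the pair per kilobase of exon. Ckm made up 80.3% and 52.8% of the sum of Ckm and the brain-type kinase gene Ckb in mutant and 1.92% and 4.26% in wild-type libraries. Pgam2 made up 79.5% and 43.9% of its pair with Pgam1 in mutant and 17.0% and 12.6% in wild-type libraries. Scaled by coding length instead, the Pgam2 share was 64.2% and 26.5% in mutant and 8.62% and 6.24% in wild-type libraries. Atp2a1 made up 39.5% and 16.2% of its pair with Atp2a2 in mutant and 0.406% and 0.995% in wild-type libraries. In these 3 pairs the groups did not overlap, and of the 3 only Ckm held the larger part in both mutant libraries.

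The muscle forms of cytochrome c oxidase were the minor partner in all 4 libraries. Cox6a2 made up 8.38% and 2.30% of its pair with Cox6a1 in mutant and 0.619% and 0.414% in wild-type libraries, and Cox8b made up 10.6% and 3.97% of its pair with Cox8a in mutant and 0.132% and 0.253% in wild-type libraries. Cox7a1 went the other way, with 13.2% and 11.1% of its pair with Cox7a2 in mutant and 14.7% and 17.3% in wild-type libraries. The pair of Cacna1s and its relative Cacna1c, the channel of heart and smooth muscle, hardly differed, with Cacna1s at 70.4% and 71.0% in mutant and 69.8% and 68.7% in wild-type libraries. Over 23 pairs the median difference in share, mutant minus wild type, was 10.2 percentage points. Values ran from -3.82 (Cox7a1) to 77.2 (Ckmt2). The pairs are not independent, since Pygm and Ryr1 each enter more than once. In wild-type libraries the share of Sln in its pair with Pln rests on 1 Sln and 2 Pln counts. Reads that align to several places were left out of the counts, which makes genes with near-identical copies uncertain, and Eno1, the general enolase, had under 1 CPM in all libraries.

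**Figure D3:**
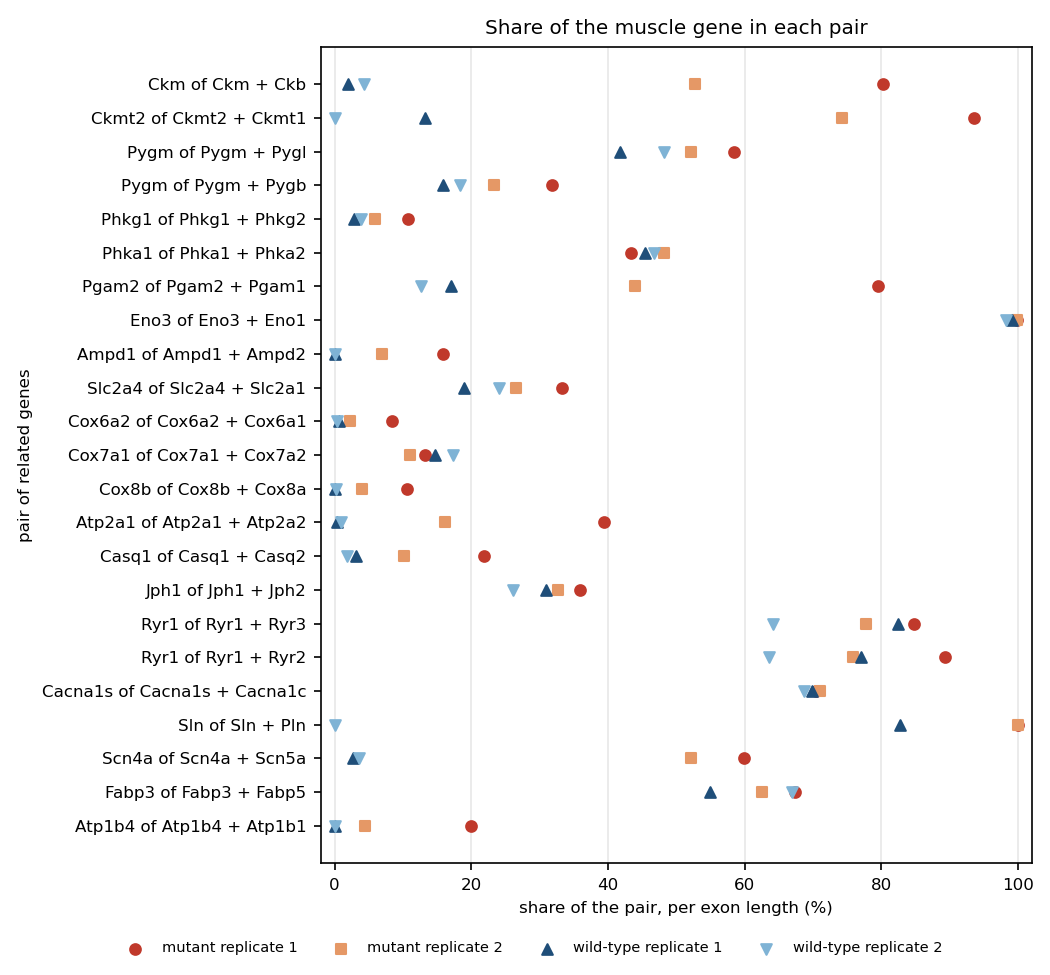
Share of the muscle gene in the sum of each pair of related genes, per exon length, in percent, with 1 point for each of the 4 libraries. For Ckm, Ckmt2, Scn4a and Atp2a1 both mutant libraries lie to the right of both wild-type libraries, with Ckm at 80.3% and 52.8% in the mutant, while the points of Phka1 and Cacna1s lie close together.

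Calcium and energy genes outside the 32 come from lists drawn up with earlier results of these data known, so their counts are a description too. Of 32 other calcium genes tested, 3 rose and none fell, beside 3.15% higher and 2.52% lower over all genes. At an unadjusted edgeR p below 0.05 there were 12 of the 32, beside 3772 of 14788 over all genes. DESeq2 called 5 higher and none lower, beside 4.15% and 2.79%. The 3 edgeR calls were Asph, Cacna2d1 and Slc8a1. Asph encodes the junctional protein junctin and the enzyme aspartyl hydroxylase, which gene counts do not separate. It had 72.8 and 66.4 CPM in mutant and 46.3 and 43.5 CPM in wild-type libraries (edgeR adjusted p = 0.0194). The calcium channel subunit gene Cacna2d1 had a log2 fold change of 0.50 ± 0.10 (edgeR adjusted p = 0.0288). That of the sodium-calcium exchanger gene Slc8a1 was 0.45 ± 0.11 (edgeR adjusted p = 0.0481). In each of the 3 the mutant libraries differed little from each other, with ratios of 1.10, 1.11 and 1.06. Genes of the muscle store and surface that were not called had larger values, among them Cav3, the caveolin of muscle, at 3.37 ± 0.91 (adjusted p = 0.0676), and Hrc, a calcium-binding protein of the store, at 2.50 ± 0.62 (adjusted p = 0.056). Pln, the cardiac relative of sarcolipin, had no count in mutant and 2 counts in wild-type libraries. The list's median log2 fold change was 0.28. Left out in turn, mutant replicate 2 gave 11 calls, all higher, beside 5.43% of all genes, mutant replicate 1 gave 3, beside 3.39%, of which 1 was shared with the full fit, and either wild-type library gave none, with 8 and 9 genes at an unadjusted p below 0.05.

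Of 24 other energy genes tested, none rose and 2 fell, beside 3.15% higher and 2.52% lower over all genes. Slc16a3, a lactate exporter, had 79.4 and 74.4 CPM in mutant and 121 and 106 CPM in wild-type libraries (log2 fold change -0.56 ± 0.10, adjusted p = 0.0226), and Ldhb, a lactate dehydrogenase subunit, had 227 and 244 CPM in mutant and 297 and 311 CPM in wild-type libraries (-0.37 ± 0.08, adjusted p = 0.0461). The other lactate dehydrogenase subunit gene, Ldha, was not called (0.19 ± 0.14, adjusted p = 0.426). The median was 0.26, and 13 of the 24 had an unadjusted edgeR p below 0.05, beside 3772 of 14788 over all genes. DESeq2 called 3 higher and 2 lower, beside 4.15% and 2.79%. Left out in turn, mutant replicate 2 gave 10 calls (9 higher, beside 5.43% of all genes), mutant replicate 1 gave 3, wild-type replicate 1 none, with 7 genes at an unadjusted p below 0.05, and wild-type replicate 2 gave 1.

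Of 28 general-tissue relatives tested, 5 had an unadjusted edgeR p below 0.05, beside 3772 of 14788 over all genes. Their median log2 fold change was -0.04. By edgeR and by DESeq2 1 rose and none fell, beside 3.15% of all genes called higher by edgeR. The gene was Ampd3, the AMP deaminase of red blood cells and other tissues, at 19.3 and 19.1 CPM in mutant and 11.6 and 7.94 CPM in wild-type libraries (0.95 ± 0.20, adjusted p = 0.0383). Without mutant replicate 1 there were 2 calls, without mutant replicate 2 there were 3, and leaving out either wild-type library gave none, with 7 and 6 genes at an unadjusted p below 0.05.

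**Figure D4:**
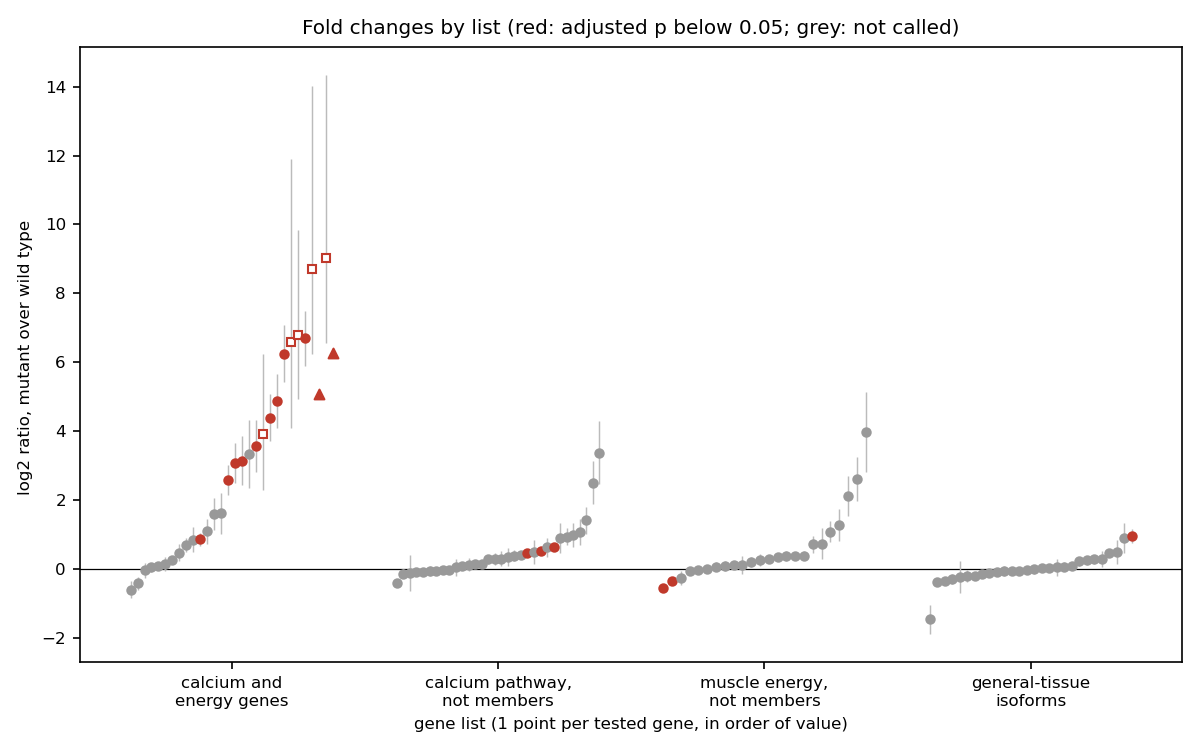
Log2 ratio of mutant over wild type for each tested gene in 4 lists, ordered within a list by the fitted value. Circles are fitted values with their SE, open squares are count ratios with exact 95% intervals for genes with 1 to 3 wild-type counts, triangles set Ampd1 and Hfe2 against 3 wild-type counts, and red marks an adjusted p below 0.05. Called genes of the other 3 lists lie between -0.56 and 0.95, while Ckm, among the members, lies at 6.70.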

How the data were processed

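Per the labels' protocols, libraries of poly(A) RNA from whole testes were read from 1 end over 100 bases. The submitters' processing notes name TopHat 1.4.0, HTSeq, CASAVA 1.8.1, DESeq2 and mm9 but no order of steps. The authors deposited a single table, treated as estimated counts because lines below the genes hold percentages. Its gene values are whole-number counts, and rounding changed nothing. Their sums equal the table's own total of unique reads in genes in all 4 libraries. Reads in no gene (13.8% to 17.3%), ambiguous reads (0.602% to 0.726%) and reads with several alignments were left out. The sources used here do not give the annotation, the counting mode or the strand setting.

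Counts were tested with edgeR 4.0.16 in R 4.3.3 (quasi-likelihood F test, TMM, minimum count 10 and minimum total 15, legacy and robust options off, genotype alone, two-sided, called at an adjusted p below 0.05), after a check on simulated counts. Positive log2 fold changes mean higher in mutant, and their SE is the absolute log2 fold change over the root of F. DESeq2 1.42.0, other scalings, no filter, a replicate block and each library left out were alternatives. Exon lengths and positions come from GENCODE M1 (mm9), in which all 32 symbols occur. The coding length planned from RefSeq proteins was replaced by that of GENCODE M1, chosen after seeing the data, as were the count ratios without mutant replicate 1, which keep the library scaling of the full fit. The 32 genes, the lists, the pairs and the rule for named genes (all 32, called genes of the lists and partners of the pairs) were chosen with earlier results of these data known. Cav3, Hrc, Ldha, Myh3, Myl4, other sarcomere genes, single markers and neighbouring genes are named outside that rule, after their values were seen.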

Additional observations from a re-analysis of the deposited data

How the results depend on the processing

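Over all tested genes 839 were called. Without a filter on low counts 501 were, and with each library left out the count ran from 74 to 1295. The members called, 16 in the full fit, ran from 0 (without either wild-type library) to 23 (without mutant replicate 2), and the replicate block and DESeq2 each gave 18 and no filter 11. The other calcium genes, 3 called, gave 5 by DESeq2, 6 with the replicate block and 0 to 11 with a library left out. The other energy genes, 2 called, gave 1 without the filter, 5 by DESeq2 (3 higher), 4 with the replicate block (2 higher) and 0 to 10 with a library left out. The general-tissue genes, 1 called, gave 0 without the filter and 0 to 3 with a library left out. The members' median log2 fold change of 2.82 was 2.09 without the filter and 1.68 to 3.15 with a library left out. The median ratio between the mutant libraries, 2.36 over 31 members, was 3.79 after subtraction of the wild-type mean. The latter covers only the 26 of these 31 members that exceeded this mean in both mutant libraries. TATAAA was found in 1 member instead of 2 in the 250 bases before the start. The cause of these shifts was not tested. By construction, fits without a library hold fewer samples, the fit without a filter tests more genes, and the ratio after subtraction covers fewer members.

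The numbers in the titles do not pair the libraries by any label. The deviations of same-numbered libraries correlated at -0.0481, and with the replicate block 850 genes were called, 710 of them shared with the fit without it. By value, 18 of 30 member fold changes moved by more than the spread between replicates when mutant replicate 1 was left out, 4 for wild-type replicate 1 and 2 for wild-type replicate 2. None of the called ones changed sign under any setting, and none of the 30 moved so under the other settings. The planned coding length from RefSeq proteins was not run. With the GENCODE M1 coding length the median difference in pair share was 8.26 percentage points. Depth limits Clcn1 and Phkg1, with 13 and 12 wild-type counts.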

Other observations

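Sarcomere genes, read beside the calcium and energy genes, also differed in how they were divided between the mutant libraries. Myh3, the embryonic myosin heavy chain, was read at 70.6 and 5.75 CPM in mutant and at 2.63 and 0.784 CPM in wild-type libraries, and Myl4, an embryonic and atrial myosin light chain, at 73.1 and 9.38 CPM in mutant and at 5.26 and 5.88 CPM in wild-type libraries. Their ratios of mutant replicate 1 over 2 were 12.3 (9.87 to 15.5) and 7.79 (6.52 to 9.35). Ratios were also 3.70 (3.43 to 4.00) for the perinatal myosin gene Myh8, and among genes of fast fibers 4.23 (2.81 to 6.53) for Myh2, 3.89 (3.67 to 4.11) for Mylpf, 3.53 (3.23 to 3.87) for Tnni2, 2.40 (1.75 to 3.30) for Myh1, 1.84 (1.59 to 2.13) for the actinin gene Actn3 and 1.54 (1.25 to 1.91) for the myosin-binding protein gene Mybpc2. Each value compares 1 library with 1 other, the genes were picked after their values were seen, and no test was made.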
